A study of Mus musculus with 3 samples.

Results

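The genes described here are 44 mouse genes of the major histocompatibility complex (MHC) and of antigen presentation, of 21901 annotated genes with a protein-coding transcript and 55536 genes in all. A gene was a member when at least 1 of its transcripts was annotated as protein coding and its symbol began with H2- or was B2m, Tap1, Tap2, Tapbp, Nlrc5, Ciita or Cd74. The members were sorted by symbol into 2 classical class I genes, 24 nonclassical class I genes, 10 class II genes, 5 partners of class I and 2 partners of class II. H2-Ke6, which encodes a steroid dehydrogenase and carries the prefix for its place in the MHC, was put in no class.

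Total RNA of the chromatin fraction had been depleted of ribosomal RNA and sequenced from macrophages that were grown from C57BL/6J bone marrow (BMDM, primary cells). The single group had received Lipid A, the part of lipopolysaccharide that Toll-like receptor 4 senses, at 100 ng/ml for 12 h, then 12 h of washout, then 100 ng/ml Lipid A again for 60 min. The labels give 3 biological replicates that share a donor entry, do not say whether these were separate animals or cultures, and record neither sex nor age. No untreated or singly dosed cells form part of the group, so all values are levels and none is a response to Lipid A.

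MHC class I molecules are a heavy chain bound to beta-2-microglobulin, and they carry peptides of cytosolic proteins that the TAP transporter brings into the endoplasmic reticulum. Classical heavy chains are shown to CD8 T cells, while nonclassical ones are mostly less polymorphic and often have narrower roles with NK cells or unusual T cells. Class II molecules are pairs of an alpha and a beta chain, are guided by the invariant chain Cd74, and carry peptides of endocytosed proteins to CD4 T cells. NLRC5 and CIITA are related transcriptional coactivators, NLRC5 acting on class I genes and CIITA on class II genes, and both work through a promoter module that includes an X2 box and a Y box. RNA on chromatin is mostly newly made or not yet released, so its level is not that of messenger RNA in the cytoplasm or of protein.

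Promoter letters are shown for 6 members that span the classes and the range of levels. These are the 250 bases before the annotated start in the RefSeq table of GRCm38.p6, and 34 of 44 members had an entry. The stretches lie at chr17:34000348-34000597 (minus strand) for H2-K1, chr17:35262844-35263093 (plus) for H2-D1, chr17:35438905-35439154 (plus) for H2-Q7, chr17:35469839-35470088 (plus) for H2-Q10, chr2:122147437-122147686 (plus) for B2m and chr17:34287824-34288073 (minus) for H2-Aa. Capitals mark every match, on either strand, to 4 short motifs: ATTGG (the core of a Y box), TGACG (the core of an X2 box), GGGA and CC with any 4 bases between them (an NF-kB form) and AANNGAAA (a form like the interferon-stimulated response element). Matches that overlap form a single capital run.
H2-K1: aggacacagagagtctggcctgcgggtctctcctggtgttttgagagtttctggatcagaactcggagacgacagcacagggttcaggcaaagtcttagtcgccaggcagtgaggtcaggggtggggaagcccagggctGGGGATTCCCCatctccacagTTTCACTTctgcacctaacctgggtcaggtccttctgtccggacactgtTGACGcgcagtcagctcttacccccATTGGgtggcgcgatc
H2-D1: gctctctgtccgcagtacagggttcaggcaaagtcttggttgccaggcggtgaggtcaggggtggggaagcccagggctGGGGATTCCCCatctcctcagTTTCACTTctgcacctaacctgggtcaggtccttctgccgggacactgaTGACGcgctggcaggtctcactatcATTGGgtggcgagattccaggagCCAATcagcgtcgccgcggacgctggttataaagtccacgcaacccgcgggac
H2-Q7: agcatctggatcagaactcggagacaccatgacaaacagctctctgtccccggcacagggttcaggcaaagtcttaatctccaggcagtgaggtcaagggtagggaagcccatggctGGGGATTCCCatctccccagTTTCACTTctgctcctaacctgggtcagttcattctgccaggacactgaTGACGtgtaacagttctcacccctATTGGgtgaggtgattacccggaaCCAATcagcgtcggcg
H2-Q10: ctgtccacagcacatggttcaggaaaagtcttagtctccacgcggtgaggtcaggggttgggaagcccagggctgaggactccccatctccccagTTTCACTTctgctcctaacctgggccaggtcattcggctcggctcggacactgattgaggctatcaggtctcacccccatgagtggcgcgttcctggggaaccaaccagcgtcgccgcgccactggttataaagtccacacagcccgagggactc
B2m: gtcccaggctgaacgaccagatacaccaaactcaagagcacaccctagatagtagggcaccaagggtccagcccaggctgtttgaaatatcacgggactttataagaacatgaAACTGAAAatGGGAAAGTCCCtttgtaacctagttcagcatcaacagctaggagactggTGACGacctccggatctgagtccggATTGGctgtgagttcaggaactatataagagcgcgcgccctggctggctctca
H2-Aa: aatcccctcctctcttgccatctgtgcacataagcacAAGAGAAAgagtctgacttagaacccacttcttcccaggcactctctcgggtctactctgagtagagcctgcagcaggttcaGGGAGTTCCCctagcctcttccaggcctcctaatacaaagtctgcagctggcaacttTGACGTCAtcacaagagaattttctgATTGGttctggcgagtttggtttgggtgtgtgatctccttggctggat

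H2-K1 and H2-D1 held all 4 motifs, and each had ATTGG followed upstream by TGACG at a spacing of 25 bases. B2m had the same spacing of 25 bases, H2-Aa one of 26 and H2-Q7 one of 24. Of 8 members with both cores on the strand of the gene, 6 had TGACG upstream of ATTGG at 24 to 26 bases, H2-M3 being the sixth. This spacing was not counted over all promoters, so no share stands beside it. H2-Q10 had neither core within these 250 bases, which says only that these letters are not in this window. ATTGG on either strand was in 30 of 34 member promoters (88.2%), against 34.5% of all 27025 promoters. TGACG was in 14 of 34 (41.2%), against 17.9% of all. Both cores were in 14 of 34 (41.2%), against 6.39% of all. The NF-kB form was in 12 of 34 (35.3%) against 17.3%, and AANNGAAA in 18 of 34 (52.9%) against 21.6%. By class, TGACG was in 2 of 2 classical, 9 of 20 nonclassical and 1 of 8 class II promoters. Only these letters were searched, so an X2 box spelled otherwise was missed. The class counts therefore do not tell which promoters lack an X2 box. A match is a description of letters and not of binding, and promoters of related genes are not independent.

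The libraries of replicates 1, 2 and 3 had been made from 1000, 250 and 500 ng of RNA, and their gene tables hold 12602702 expected counts for replicate 1, 17222239 for replicate 2 and 17042691 for replicate 3. Levels are given as TPM, which divides counts by effective transcript length and scales each library to 1000000, in the order of replicates 1, 2 and 3. Macrophage markers were detected 8 of 8, with summed levels of 1281, 1312 and 1001 TPM. Replicate 2 stood apart: 8 fibroblast or stromal markers summed to 611 TPM there, against 0.04 TPM in replicate 1 and 2.18 TPM in replicate 3, with Col1a1 at 224 TPM. The median gene of 9994 with a mean of at least 1 TPM differed from the average of the other libraries by 0.56 in replicate 2, by -0.47 in replicate 1 and by -0.14 in replicate 3, on the log2(TPM + 1) scale.

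Class I heavy chain genes held most of the members' summed TPM. The 10 class II genes summed to 53.7, 48.9 and 47.7 TPM, the 24 nonclassical genes to 1051, 956 and 979 TPM, and the 2 classical genes to 3329, 3071 and 2884 TPM. The 5 class I partners summed to 841, 827 and 629 TPM. All 44 members together held 1.99, 1.42 and 1.53% of the TPM of genes with a protein-coding transcript. A member was called detected when it had over 3 expected counts in at least 1 library, and 27 of 44 passed, beside 63% of all 21901 genes. At least 1 TPM in all 3 libraries was reached by 25 of 44 members (39.1% of all genes), at least 10 TPM by 18 (16.8% of all) and at least 100 TPM by 7 (2.16% of all). The median member stood at 9.29, 8.64 and 7.64 TPM (8.52 ± 0.829, SD, n = 3), against 0.26, 0.96 and 0.30 TPM for the median of all such genes.

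**Figure D1:**
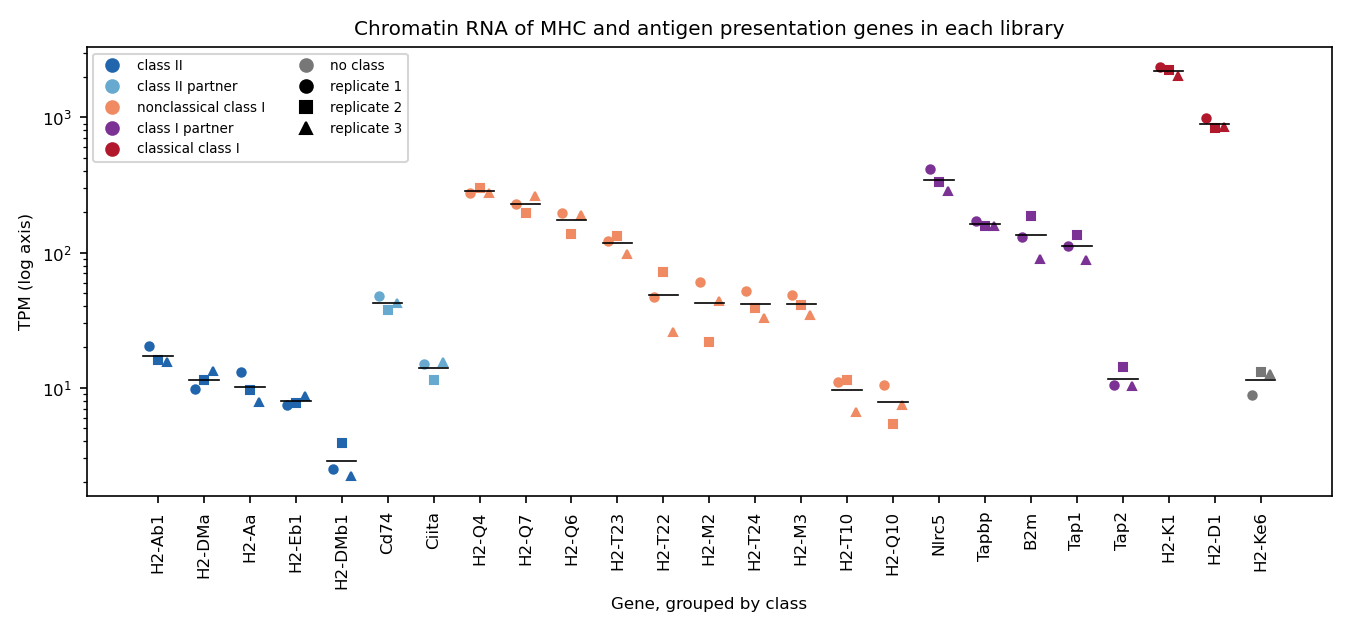
TPM of the 25 members with a mean of at least 1 TPM in each of 3 libraries (log axis), grouped by class, with a line at the mean. The class II genes lie between 17.3 and 2.87 TPM, the nonclassical genes spread from 283 TPM (H2-Q4) to 7.79 TPM (H2-Q10), and H2-D1 and H2-K1 lie above all others.

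H2-D1 (ENSMUSG00000073411.11, chr17:35262730-35267499, mm10), the D heavy chain, had 988, 830 and 847 TPM. H2-K1 (ENSMUSG00000061232.16, chr17:33996017-34000347), the K heavy chain and the other classical gene, had 2341, 2241 and 2037 TPM. H2-K1 was the third highest of the genes with a protein-coding transcript, with 21267, 20090 and 19779 expected counts. The levels of the pair did not overlap, and H2-D1 minus H2-K1 was -1.31 ± 0.10 on the log2(TPM + 1) scale (SD, n = 3, exact two-sided sign-flip p = 0.25). That p is the smallest 3 libraries allow, and it was the same, also after adjustment, for each of the 8 gene pairs compared here, all of which had 1 sign in 3 of 3 libraries. Without division by length, H2-D1 minus H2-K1 was smaller in size, at -0.75.

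Transcript letters are shared among class I genes. Of the 31-base words in H2-K1 transcripts, 22.8% also occur in transcripts of another gene, and in H2-D1 26.9% do. The share was 53.0% for H2-Q4, 51.8% for H2-Q6, 67.4% for H2-T22 and 64.2% for H2-T10, while it was 4.62% for H2-M3, 3.20% for H2-M2 and 0 for B2m. The median share was 22.6% over nonclassical genes, 24.8% over classical genes and 1.32% over class II genes. Exon 4, which encodes the membrane-near alpha-3 domain, shows likeness by base, though no other stretch below matches H2-K1 over 31 straight bases. Its first 60 bases in the GENCODE M21 transcripts (mm10) lie at chr17:35265784-35265843 for H2-D1, chr17:35442267-35442326 for H2-Q7, chr17:36031038-36031097 for H2-T23, chr17:37272269-37272328 for H2-M3 and chr17:33997501-33997560 for H2-K1, with H2-T23 and H2-K1 on the minus strand. Capitals mark bases that differ from H2-K1.
H2-D1: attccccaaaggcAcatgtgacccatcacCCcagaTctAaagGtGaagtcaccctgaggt
H2-Q7: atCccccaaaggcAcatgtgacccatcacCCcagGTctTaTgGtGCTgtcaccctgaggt
H2-T23: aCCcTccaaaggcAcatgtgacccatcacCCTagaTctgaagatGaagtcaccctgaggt
H2-M3: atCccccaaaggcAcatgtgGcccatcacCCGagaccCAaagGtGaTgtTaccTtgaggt
H2-K1: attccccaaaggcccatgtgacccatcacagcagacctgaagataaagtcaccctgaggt

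In these 60 bases H2-D1 differs from H2-K1 at 7 positions, H2-T23 at 9, H2-Q7 at 12 and H2-M3 at 13. Over the whole of exon 4, H2-D1 is 96.0% identical to H2-K1, H2-T23 95.3%, H2-Q6 93.5%, H2-Q7 90.5%, H2-M2 86.2% and H2-M3 84.8%. In exon 2, which encodes the first domain of the peptide groove, the identities are 91.1% for H2-D1, 88.1% for H2-Q6, 87.8% for H2-Q7, 86.7% for H2-T23, 69.6% for H2-M3 and 69.2% for H2-M2. Class I symbols with no protein-coding transcript, which are not members, also carried signal. H2-K2 had 136, 90.3 and 108 TPM, and H2-Q5 had 749, 432 and 589 TPM, while 15.5% of the words of H2-Q7 recur in H2-Q5.

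**Figure D2:**
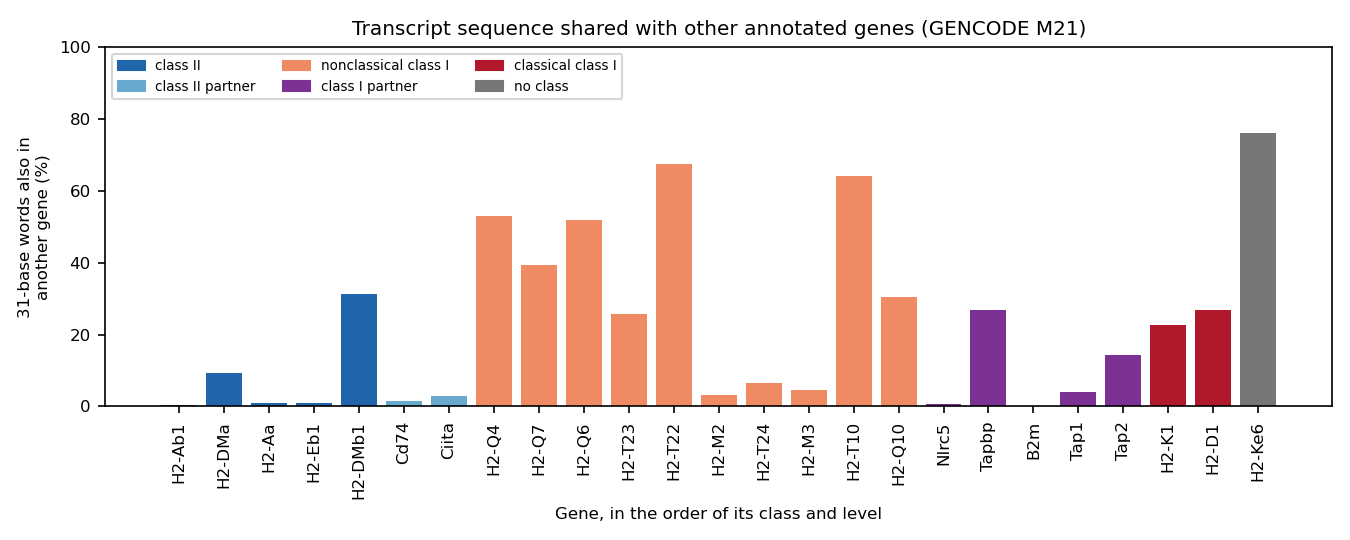
Share of each gene's 31-base transcript words that also occur in another annotated gene (%), for the 25 members with a mean of at least 1 TPM, coloured by class. Class I heavy chain genes of the Q and T groups reach 67.4% (H2-T22), while B2m has 0 and most class II genes have little.

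Nonclassical class I genes were either clearly present or at the floor. Of 24, 10 were detected (63% of all genes), and 14 had at most 3 counts in every library. In all 3 libraries 8 reached 10 TPM (16.8% of all) and 3 reached 100 TPM (2.16% of all). The nonclassical median was therefore 0.015, 0 and 0 TPM, far below the levels of the genes that were present. Nonclassical minus classical class I, as the difference of mean log2(TPM + 1) over all members, was -8.05, -8.00 and -7.98 (-8.01 ± 0.03, SD, n = 3), and over only the genes with a mean of at least 1 TPM it was -4.61. No p is given for scores over the members.

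The Q group led the nonclassical genes. H2-Q4 had 275, 298 and 277 TPM. H2-Q7, which encodes a Qa-2 molecule held in the membrane by a lipid anchor, had 230, 197 and 264 TPM. H2-Q6, which is 93.0% identical to H2-Q7 in exon 2, 94.9% in exon 3 and 96.1% in exon 4, had 197, 137 and 190 TPM. All values of H2-Q4 lay above all those of H2-Q7 and H2-Q6, and the highest H2-Q6 value was just below the lowest of H2-Q7. The order of H2-Q6 and H2-Q7 depended on the measure. Protein-coding transcripts of H2-Q7 alone summed to 33.5, 7.44 and 21.8 TPM, below every value of H2-Q6, whose TPM was all protein coding. In the kallisto layout their ranges overlapped, with 224, 129 and 185 TPM for H2-Q6 and 250, 161 and 223 TPM for H2-Q7. H2-Q10, known as a secreted class I molecule of the liver, had 10.5, 5.37 and 7.47 TPM, and all of it was assigned to 1 retained-intron transcript.

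The T group came next. H2-T23, the Qa-1 heavy chain that shows leader peptides of other class I molecules to NK cell receptors, had 121, 133 and 97.4 TPM. H2-T22, a ligand of some gamma-delta T cells, had 47.0, 72.3 and 25.9 TPM and the widest relative spread of the present members, with a coefficient of variation of 48.0%. H2-T24 had 52.0, 39.1 and 33.0 TPM. The ranges of H2-T22 and H2-T24 overlapped, and that of H2-T23 lay above both. H2-T10, a close relative of H2-T22 that M21 lists as a polymorphic pseudogene, had 10.9, 11.3 and 6.56 TPM, below every library of H2-T22.

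In the M group only H2-M2 and H2-M3 passed. H2-M3, which presents peptides that begin with N-formylmethionine, as bacterial ones do, had 48.8, 40.9 and 34.4 TPM. H2-M2 had 60.3, 21.7 and 44.0 TPM, with its lowest value in replicate 2. The ranges of the pair overlapped. H2-M10.1 to H2-M10.6, a family known from vomeronasal neurons, had at most 3 counts in every library, as had H2-M1, H2-M5, H2-M9 and H2-M11. The same held for H2-Bl, H2-Q1, H2-Q2 and H2-T3, the thymus leukaemia antigen. For genes without a count, the floor of 3 counts allows levels up to 0.238 CPM (counts scaled to a library total of 1000000) in replicate 1, 0.174 CPM in replicate 2 and 0.176 CPM in replicate 3, counting error only.

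**Figure D3:**
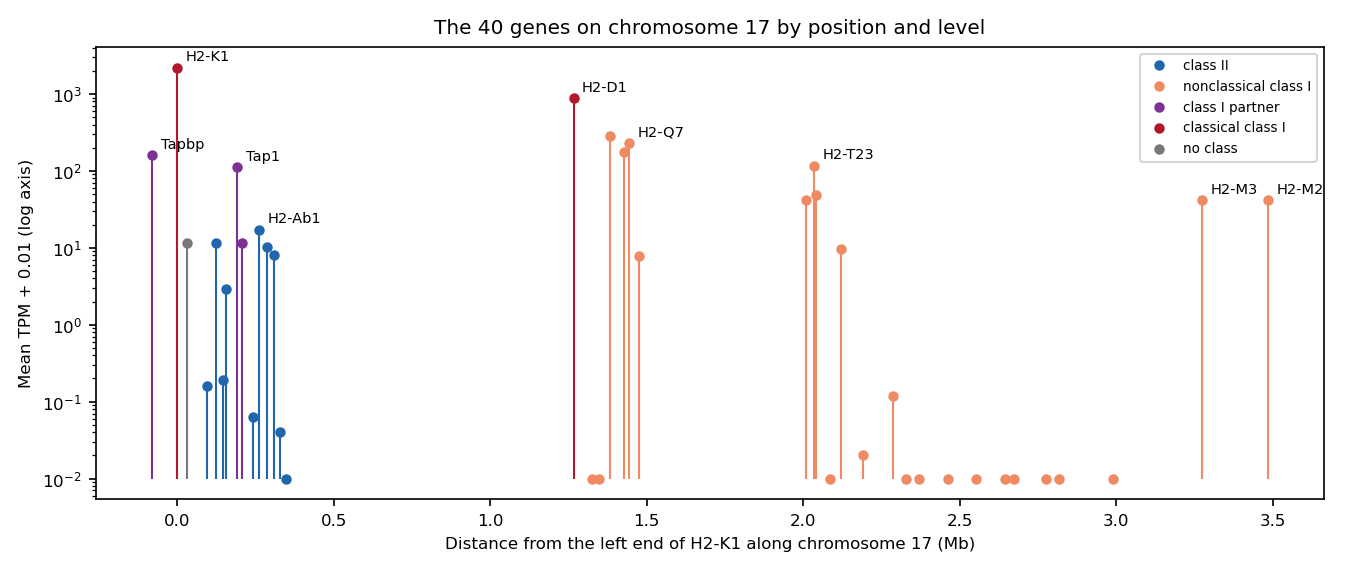
Mean TPM plus 0.01 (log axis, n = 3) of the 40 members on chromosome 17 against the distance in Mb of each gene's left end from that of H2-K1. The class II genes form a low block beside H2-K1, H2-D1, H2-Q4, H2-Q6 and H2-Q7 stand high with H2-Q1 and H2-Q2 at 0 between them, and the stretch between the T group and H2-M3 holds genes at the floor.

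Of the 44 members, 40 lie on chromosome 17 within 3.57 Mb (chr17:33915899-37483552). High and low members alternate along this stretch. H2-K1 and Tapbp, at 2207 and 162 TPM on average, stand beside class II genes that are all at or below 17.3 TPM. Between H2-D1 (888 TPM) and H2-Q4 (283 TPM) lie H2-Q1 and H2-Q2, both listed at 0 TPM in every library.

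The partners of class I were all detected, and 5 of 5 reached 10 TPM in all 3 libraries. Nlrc5 (chr8:94434356-94527272), the coactivator of class I genes, had 418, 333 and 284 TPM. Tapbp, or tapasin, which holds class I to the TAP transporter while peptides are loaded, had 170, 158 and 158 TPM. B2m (chr2:122147686-122153083), the light chain of every class I molecule, had 131, 187 and 88.9 TPM. B2m is a single transcript with no shared 31-base word, and it lay far below the heavy chain, with B2m minus H2-K1 at -4.08 ± 0.47 (log2, SD, n = 3, exact p = 0.25). Tap2, one chain of the peptide transporter, had 10.4, 14.1 and 10.3 TPM. Tap1, its partner chain, had 113, 135 and 87.8 TPM. Tap2 minus Tap1 was -3.15 ± 0.17 (log2, SD, n = 3, exact p = 0.25), and the ranges did not overlap.

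Of 11 other genes of class I peptide supply and loading, 11 were detected and 8 reached 10 TPM in all 3 libraries, with a median of 35.7, 47.9 and 35.1 TPM. Psme2, a proteasome activator chain, led them with 252, 318 and 326 TPM. Tapbpl, a relative of tapasin that edits peptides, was the lowest, at 4.66, 4.84 and 4.17 TPM. Their median lay below that of the class I partners, which was 131, 158 and 88.9 TPM.

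Class II genes lay far below the classical class I genes and none reached 100 TPM. Of 10, 7 were detected (63% of all genes). At least 1 TPM in all 3 libraries was reached by 5 (39.1% of all) and at least 10 TPM by 1 (16.8% of all). The class II median was 1.38, 2.04 and 1.19 TPM (1.53 ± 0.444, SD, n = 3), above the 0.26, 0.96 and 0.30 TPM of all genes with a protein-coding transcript. Class II minus classical class I was -8.85, -8.71 and -8.72 (-8.76 ± 0.08), and class II minus nonclassical class I was -0.81, -0.71 and -0.73 (-0.75 ± 0.05), both in mean log2(TPM + 1). Over genes with a mean of at least 1 TPM, class II minus nonclassical class I was larger, at -2.57. In such bulk samples fewer cells of a type and less RNA per cell cannot be told apart. B cells and dendritic cells also carry class II: of 6 B cell markers only Cd22 was detected, and the list summed to 2.13, 4.86 and 0.40 TPM. Of 7 dendritic cell markers 5 were detected, with Cd209a at 0 and a sum of 1.09, 1.33 and 1.26 TPM. None of 6 T and NK cell markers was detected by expected counts. The part of such cells in the class II level was not tested.

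H2-Aa, the I-A alpha chain, had 13.2, 9.57 and 7.81 TPM. H2-Ab1 (ENSMUSG00000073421.6, chr17:34257689-34269419), the I-A beta chain, led class II in the gene tables with 20.4, 16.0 and 15.4 TPM. H2-Aa minus H2-Ab1 was -0.73 ± 0.16 (log2, SD, n = 3, exact p = 0.25), and without division by length the sign turned, to 0.65. H2-Eb1, the I-E beta chain, had 7.48, 7.70 and 8.68 TPM, and H2-Eb1 minus H2-Ab1 was -1.02 ± 0.29 (exact p = 0.25). H2-Ea-ps, the alpha chain that C57BL/6 mice do not make, was listed at 0 in all 3 libraries. H2-Ab1 minus H2-K1 was -6.93 ± 0.14 (exact p = 0.25).

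H2-DMa and H2-DMb1 encode H2-DM, which exchanges peptides on class II. H2-DMa had 9.71, 11.3 and 13.3 TPM, and H2-DMb1 had 2.52, 3.87 and 2.22 TPM. H2-DMb2, which shares 36.6% of its 31-base words with other genes, had 0.22, 0.20 and 0.12 TPM. H2-Oa and H2-Ob encode H2-O, an inhibitor of H2-DM known from B cells. H2-Oa had 4, 2 and 1 counts, H2-Ob 0, 0 and 2 counts and H2-Eb2 2, 2 and 0 counts, so that all were at or near the floor.

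Of the class II partners, Cd74 lay above every class II gene and Ciita among the higher ones. Cd74, the invariant chain, had 48.1, 37.7 and 42.2 TPM, and Cd74 minus H2-Ab1 was 1.26 ± 0.12 (log2, SD, n = 3, exact p = 0.25). Ciita, the coactivator of class II genes, had 14.9, 11.5 and 15.6 TPM. Nlrc5 minus Ciita was 4.52 ± 0.36 (log2, SD, n = 3, exact p = 0.25), which places the class I coactivator above the class II one in 3 of 3 libraries. H2-Ke6, in no class, had 8.86, 13.0 and 12.6 TPM and shares 76.1% of its 31-base words with Gm20427.

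Genes of class II processing had a median of 92.4, 77.9 and 52.2 TPM. Of 7 such genes 7 were detected and 5 reached 10 TPM, led by Ctsb with 313, 427 and 288 TPM, Ctsd with 172, 338 and 160 TPM and Lgmn with 135, 174 and 59.6 TPM, all lysosomal proteases. Ifi30, a lysosomal thiol reductase, was the lowest with 0.91, 5.92 and 0.86 TPM. Of 11 transcription factors tied to MHC genes 11 were detected, among them Irf1 with 721, 596 and 536 TPM. The list's lowest was Rfxank, a subunit of the RFX complex that binds the X box, with 1.08, 1.76 and 0.88 TPM. Of 6 MHC-like genes outside the H2 symbols 5 were detected, the highest being Cd1d1, which presents lipids, with 5.88, 15.0 and 9.39 TPM.

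The spread between libraries was lower at the median for members than for all genes. It was taken from TPM without correction for the shift of the median gene, and the sets were not matched for level. The median coefficient of variation was 18.7% over the 25 members with a mean of at least 1 TPM (range 4.23 to 48.0%), against 35.0% over all 9994 such genes. By class the median was 8.40% for classical and 15.7% for class II genes, and nonclassical genes ranged from 4.51 to 48.0%. Relative to the median gene, 23 of these 25 members were lower in replicate 2 against the average of the other libraries, with a median of -0.61 on the log2(TPM + 1) scale. The 2 above 0 were H2-T22 at 0.47 and B2m at 0.23. Before the median gene was taken off, 15 of 25 were lower in replicate 2 and 10 higher, H2-K1 (0.04) and H2-T23 (0.29) among these, with a median of -0.05. The lowest was H2-M2 at -1.77, followed by H2-Q10 at -1.20. In replicate 1, 24 of 25 members were higher than the others relative to the median gene, with a median of 0.60 and H2-Ke6 as the exception at -0.02, and before it was taken off 19 of 25 were higher. Replicate 2 is also the library with stromal markers, and their part in these shifts was not tested. Without replicate 2, nonclassical minus classical class I was -8.01, class II minus classical class I -8.78 and class II minus nonclassical class I -0.77.

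The deposited files hold each library quantified in a second way, in kallisto layout, without the alignment behind the values above. Of the 25 members, 15 were higher there and 10 lower on average. The median of all genes with a protein-coding transcript was also higher there, at 0.97, 2.10 and 1.53 TPM against 0.26, 0.96 and 0.30 TPM. How many of all genes were higher there was not counted. Both classical genes were lower, H2-K1 at 2074, 1203 and 1274 TPM and H2-D1 at 908, 519 and 582 TPM. All 5 of the class II genes among them and both class II partners were higher, among them Cd74 at 96.5, 64.6 and 67.6 TPM. H2-Q10 had 25.5, 25.2 and 26.5 TPM there, the largest gap of the 25 as a log2 ratio of kallisto over RSEM layout (1.71). The order of the classes in mean log2(TPM + 1) held, while the size of the gaps between them shrank to -7.21, -7.59 and -0.38 for nonclassical minus classical, class II minus classical and class II minus nonclassical class I. By median TPM over all members, class II lay above nonclassical class I in both layouts. The medians were 1.53 against 0.005 in the RSEM layout and 6.77 against 0.631 in the kallisto layout. Over members with a mean of at least 1 TPM in the RSEM layout, class II was lower, at 9.32 against 50.6.

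**Figure D4:**
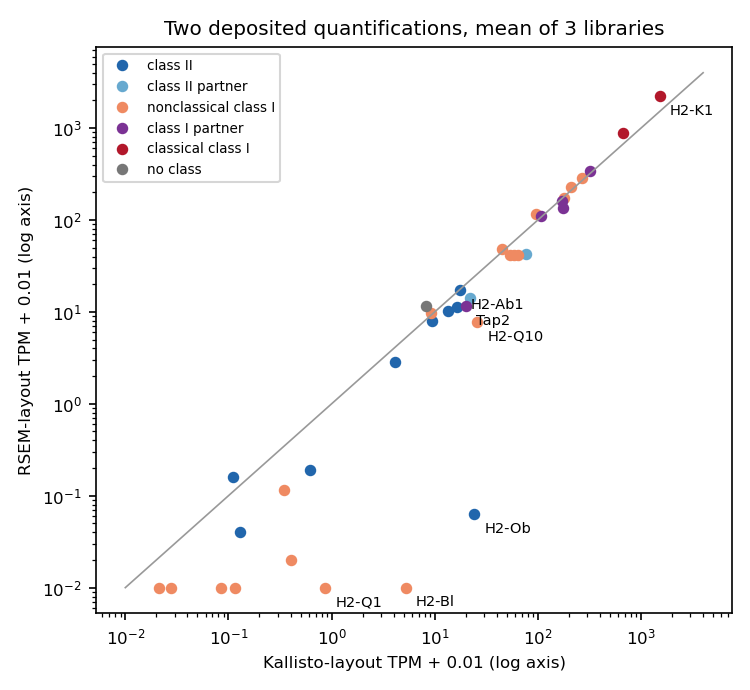
Mean TPM plus 0.01 over 3 libraries in the RSEM-layout gene tables against that in the kallisto-layout tables (log axes), with members at 0 in both left out and a line at equality. H2-Ob stands far from the line, at 23.9 TPM in the kallisto layout and 0.0533 TPM in the RSEM layout, and H2-Bl stands at 5.21 TPM in the kallisto layout and 0 in the RSEM layout.

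H2-Ob was at 31.6, 18.0 and 22.2 TPM in the kallisto layout and at 0, 0 and 2 counts in the gene tables. In the kallisto layout 1 retained-intron transcript, H2-Ob-207 of 1141 bases, took 31.6, 18.0 and 22.1 TPM of it. H2-Ob shares no 31-base word with the transcripts of another gene, and which of the pair of quantifications is nearer the RNA in the cells was not tested. H2-Bl was at 2.35, 7.01 and 6.27 TPM in the kallisto layout and listed at 0 in every gene table, and 21.5% of its 31-base words are shared. Detection by kallisto estimated counts was 35 of 44 members, against 27 of 44 by expected counts. Over all 21901 genes with a protein-coding transcript it also rose, to 16739 from 13791. By kallisto counts 3 of 6 B cell, 6 of 7 dendritic cell and 4 of 6 T and NK cell markers were detected. The T and NK cell markers summed to 10.6, 17.8 and 20.0 TPM there, with Cd3d at 14.4 TPM on average.

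Annotated transcript classes split the members. For each gene the summed TPM of retained-intron transcripts was set against that of protein-coding transcripts, with 0.1 added to each, and limma tested the log2 ratio against 0 over 4311 genes. Of 26 members with both classes 17 had a summed mean of at least 5 TPM and were tested. The retained-intron class was higher in 7 of 17, beside 24.3% of all genes tested, and the protein-coding class in 6 of 17, beside 25.6%. The median log2 ratio was 0.08 over the 17 members and -0.06 over all genes tested. Without replicate 3 the counts were 6 and 3, and the calls of H2-K1, H2-Q4, Tapbp and Cd74 were lost at limma adjusted p of 0.0508 to 0.0838. Calls over all genes tested also fell there, to 351 and 473 of 4412, from 1049 and 1104 of 4311. The log2 ratio of H2-K1 was 2.11 in that setting and that of Cd74 -1.54.

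**Figure D5:**
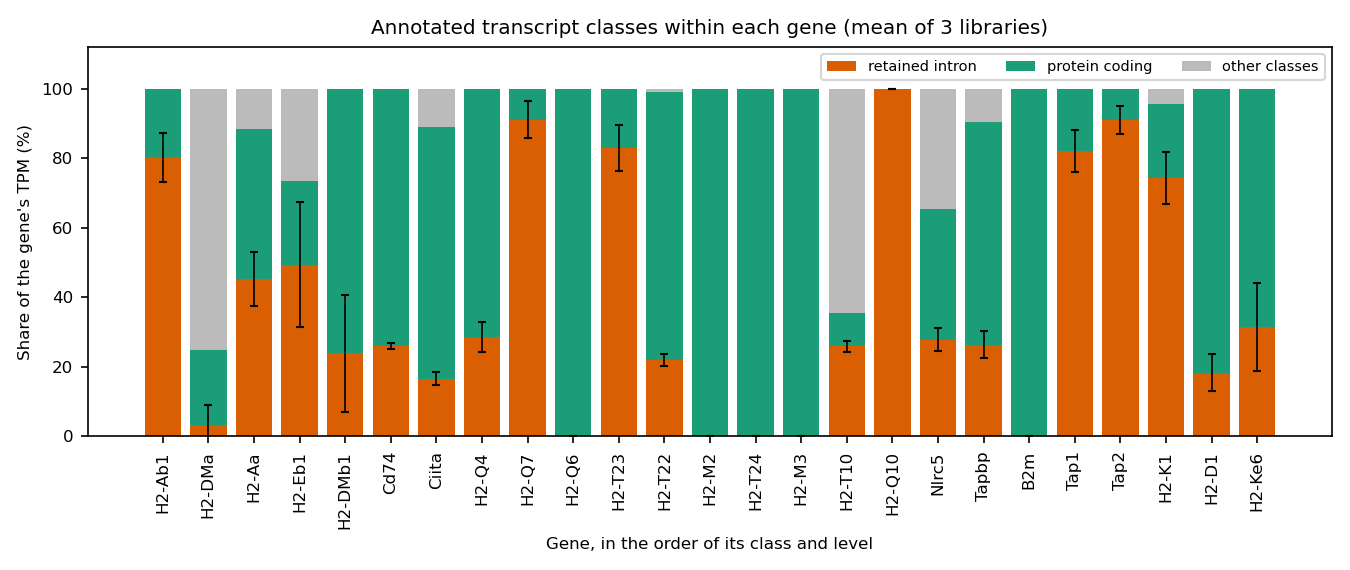
Share of each gene's TPM assigned to retained-intron, protein-coding and other transcripts (%, mean of 3 libraries), with the SD of the retained-intron share as error bar, for the 25 members with a mean of at least 1 TPM. H2-D1 stands at 18.4% retained intron beside 74.4% for H2-K1, with Tap2 at 91.0% and Tap1 at 82.0%.

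The 2 classical genes fell on opposite sides. Retained-intron transcripts took 12.9, 23.5 and 18.7% of H2-D1, with a log2 ratio of -2.19 (SE 0.28, limma adjusted p = 0.00679). They took 83.0, 70.7 and 69.5% of H2-K1, with a log2 ratio of 1.88 (SE 0.34, limma adjusted p = 0.0139). M21 lists 7 retained-intron transcripts for H2-K1 and 1 for H2-D1, so the ratio also depends on what is annotated. The short transcript H2-K1-215 (457 bases) alone had 978, 647 and 684 TPM from 4385, 1670 and 2062 counts. On counts without division by length the H2-K1 call was lost, with a log2 ratio of 0.60 (limma adjusted p = 0.186). The median ratio over all 4311 genes was lower there too, at -1.20. Of those genes 709 were called for the retained-intron class and 2372 for the protein-coding class. Protein-coding transcripts alone summed to 861, 634 and 688 TPM for H2-D1, above the 298, 554 and 534 TPM of H2-K1.

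The transporter genes leaned to the retained-intron class together. Tap2 had 95.5, 87.4 and 90.0% there, with a log2 ratio of 3.31 (SE 0.34, limma adjusted p = 0.00467). Tap1 had 88.8, 77.1 and 80.2%, with a log2 ratio of 2.25 (SE 0.32, limma adjusted p = 0.00807). Tapbp went the other way at -1.29 (limma adjusted p = 0.0139), and Nlrc5 at -0.41 was not called (limma adjusted p = 0.155). Nlrc5 was called for the protein-coding class in the kallisto layout at -1.51 (limma adjusted p = 0.00275) and on expected counts at -3.08 (limma adjusted p = 0.00113). In these settings 1351 of 4871 and 2372 of 4311 of all genes tested were called for that class. B2m has 1 transcript and could not be tested.

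Among nonclassical genes H2-Q7 (3.56), H2-T23 (2.36) and H2-Q10 (6.25, with nothing on its protein-coding transcripts) were called for the retained-intron class by limma. H2-T22 (-1.79) and H2-Q4 (-1.33) were called for the protein-coding class, and the H2-Q4 call was also lost without replicate 1 (-1.21, limma adjusted p = 0.0503). H2-Ke6 at -1.15 was not called (limma adjusted p = 0.0591), but was with a pseudocount of 1 (-0.98, limma adjusted p = 0.0424) and without replicate 1 (-1.62, limma adjusted p = 0.0311). In class II, H2-Ab1 was called for the retained-intron class at 2.04 (SE 0.30, limma adjusted p = 0.00862), with shares of 83.5, 84.9 and 72.3%. H2-Aa at 0.08 and H2-Eb1 at 1.06 were not called, and on expected counts H2-Aa was called for the retained-intron class at 1.97 (limma adjusted p = 0.00437). Ciita at -2.08 (limma adjusted p = 0.00417) and Cd74 at -1.50 (limma adjusted p = 0.00673) were called for the protein-coding class. Cd74 had 25.5, 25.5 and 27.0% on retained-intron transcripts, and in the kallisto layout its ratio was -0.15 and not called (limma adjusted p = 0.484).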

How the data were processed

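Gene tables and 2 kinds of transcript table were used for each of 3 libraries. The authors deposited expected counts and TPM for genes and transcripts in an RSEM layout, made from an mm10 alignment with GENCODE M21 according to the file notes. TPM by posterior mean stands in the same deposited tables. Estimated counts and TPM per transcript in the kallisto layout were also deposited by the authors. Aligner, strand setting and versions were not given in the sources used here, so overlapping, antisense and paralogous genes can share reads. Rows that name no gene held 1.94, 0.269 and 0.386% of counts in replicates 1, 2 and 3 and were left out. Totals of kallisto counts were 19502402, 30678687 and 29638293.

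The members and all gene lists were chosen with earlier results of these data known. Every member could be named, and of each other list the highest and lowest genes. Gene pairs had an exact two-sided sign-flip test, with Benjamini-Hochberg adjustment over 8 pairs. The isoform ratio was fitted with limma 3.58.1 in R 4.3.3 over all genes with both transcript classes and a summed mean of at least 5 TPM, and adjusted over all of them at 0.05. The fit was checked on simulated data. Since nothing says that the replicates came from separate animals or cultures, p-values reflect only how far these samples spread, which may be technical. No library was a copy of another, as chi-square per degree of freedom over genes was 61.5 to 102 between pairs. Motifs, shared words and identities were computed with Python 3.11.15 from RefSeq promoters of GRCm38.p6 and GENCODE M21 transcripts. Promoters count 250 bases before the first listed start.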

Additional observations from a re-analysis of the deposited data

How the results depend on the processing

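No paired analysis was possible because the samples form a single group. Leaving out 1 replicate at a time left the median TPM at 1.28 to 1.71 (class II), 0 to 0.0075 (nonclassical) and 1489 to 1600 (classical). The class differences stayed at -8.02 to -7.99 (nonclassical minus classical), -8.78 to -8.71 (class II minus classical) and -0.77 to -0.72 (class II minus nonclassical). The count called for the protein-coding class ranged from 3 to 6, and that for the retained-intron class from 6 to 7. Over all genes tested the same counts ranged from 473 to 849 and from 351 to 901. The 3 medians were, in the order class II, nonclassical and classical, 6.77, 0.631 and 1093 TPM in the kallisto layout and 4.97, 0.0187 and 5130 TPM when rescaled to genes with a protein-coding transcript, an alternative chosen after seeing the data. Posterior means gave 1.30 for nonclassical and 1434 for classical genes, and members with a mean of at least 1 TPM gave 9.32 for class II and 50.6 for nonclassical genes. For nonclassical minus classical, class II minus classical and class II minus nonclassical in turn, the differences were -7.21, -7.59 and -0.38 in the kallisto layout, -7.70, -8.51 and -0.81 with posterior means, -4.61, -7.18 and -2.57 over members with a mean of at least 1 TPM, -9.93, -10.20 and -0.28 with a pseudocount of 0.1, -7.23, -8.44 and -1.21 in CPM, and -9.01, -9.58 and -0.57 when rescaled. All kept their sign. The pair H2-Aa minus H2-Ab1 turned to 0.65 in CPM, where counts are not divided by length, and the other 7 pairs kept their sign there. Isoform ratios that turned sign were those of H2-Aa without replicate 2 (-0.19, limma adjusted p = 0.635; range with 1 replicate left out -0.19 to 0.29) and H2-Eb1 on expected counts (-0.022, limma adjusted p = 0.971), neither called. Of members with an SD above 0, 21 moved in level by more than 1 SD in the kallisto layout and 8 with posterior means. Of the 17 members with at most 3 expected counts in every library, 8 had more in the kallisto layout, so their level depends on the quantification as well as on depth. The cause of these changes was not tested.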
